A study of Mus musculus with 447 samples.

Results

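The cells described here are fetal mouse pancreas cells that carry abundant glucagon (Gcg) transcripts under Neurod1 overexpression, compared between the 2 sets in which they were deposited. Cells were chosen by genotype label, Pdx1CreNeurod1OE (Neurod1OE), and selected on a Gcg level of 1000 CPM or more, CPM being the reads of a gene per 1e+06 reads of the cell, spike-in rows left out. Of 212 Neurod1OE cells this took 68.4%, and of all cells in the series, with 235 of a second genotype, 32.4%. In set 3 it took 32 of 95 cells, and in set 2 all but 4, in 2 stretches of title numbers that held 47 and 66 such cells. Because it made the choice, the level of Gcg is given only as a description. The set number comes from the sample titles, and each set has its own matrix. What the number stands for is not stated, so a set may be a batch, and what is due to the set, to the embryos and to the preparation cannot be told apart.

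All cells came from stage E15.5 and were sorted as GFP-positive. Per the series' design text, a tamoxifen-inducible Cre driven by Pdx1, a gene of pancreatic progenitors, switched on Neurod1 in both sets, and Neurog3 was not deleted in these animals. RNA was read with Smart-seq3, a plate method that sequences whole transcripts of 1 sorted cell per well. No animal or litter is named for a cell, so each set counted as 1 sample. A cell is not a replicate, so the sets are compared without p-values or standard errors, by sizes and counts. Wild-type cells were not analysed here. Cells of that second genotype, which also carries a Neurog3 deletion (Ngn3KO), served only as a reference for differences between sets.

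Glucagon is the peptide hormone of pancreatic alpha cells, which raise blood glucose by acting on the liver. In the fetal pancreas, endocrine cells arise from progenitors that briefly express the transcription factor Neurog3. Neurod1 acts after it, and Irx1, Irx2 and Pou3f4 are among the regulators of the alpha fate. Hormones are made as precursors, cut by prohormone convertases and stored in dense-core granules with chromogranins.

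Both sets held male and female cells, separated by their title numbers. A cell was called by Xist against the sum of 4 Y-linked genes, each needing a 3-fold lead. In set 2, title numbers 1 to 51 gave 46 male cells and 1 female cell, and numbers from 52 upward gave 65 female cells and 1 without a call. In set 3, numbers 1 to 29 gave 5 glucagon cells, all female, and numbers 30 to 95 gave 27, of which 25 were male and 2 had no call. Sex and stretch of title numbers therefore cannot be told apart. Total counts per cell had a median of 777270 in set 3 (42644 to 1370727) and 551872 in set 2 (149525 to 2788066). Median detected genes were 8692.5 and 8083. 1 set 2 cell stood apart with 14958 detected genes, 2788066 reads and Gcg at 1870 CPM.

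Gcg ranged from 2286 to 133108 CPM in set 3, with a median of 43011, and from 1006 to 187734 in set 2, with a median of 71390. Just inside the limit lay set 3 cells at 2286, 2535 and 5455 CPM and set 2 cells at 1006, 1073 and 1117. Just outside lay set 3 cells at 897, 720 and 534 CPM and set 2 cells at 978, 969 and 820. The limit therefore fell in a gap of the set 3 values but not of the set 2 values.

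For the comparison, the reads of all cells in a set were added up and expressed as CPM. A log2 ratio is set 3 over set 2, with 1 CPM added to both. Measured genes are those at 10 CPM or more with reads in 10% or more of cells in 1 set, and genes 2-fold or more apart are called higher or lower. Of 10391 measured genes, 728 (7.01%) were higher in set 3 and 860 (8.28%) were lower, and the median log2 ratio was -0.04. Between the 2 stretches of title numbers within set 2, 746 of 10313 genes (7.23%) were higher in numbers 1 to 51 and 754 (7.31%) were lower. Set 3 thus differed from the pooled set 2 cells at about as many genes as the stretches of set 2 differed from each other. Pooling averages over those stretches, and against numbers 1 to 51 alone set 3 differed at more genes. A gene is called higher or lower against both stretches below when it passed 2-fold against all set 2 cells and against each stretch, which 420 genes (4.04%) did upward and 516 (4.97%) downward. Against numbers 1 to 51 alone, 1207 of 10489 genes (11.5%) were higher and 1247 (11.9%) lower, and against numbers from 52 upward alone, 756 of 10331 (7.32%) were higher and 835 (8.08%) lower.

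**Figure D1:**
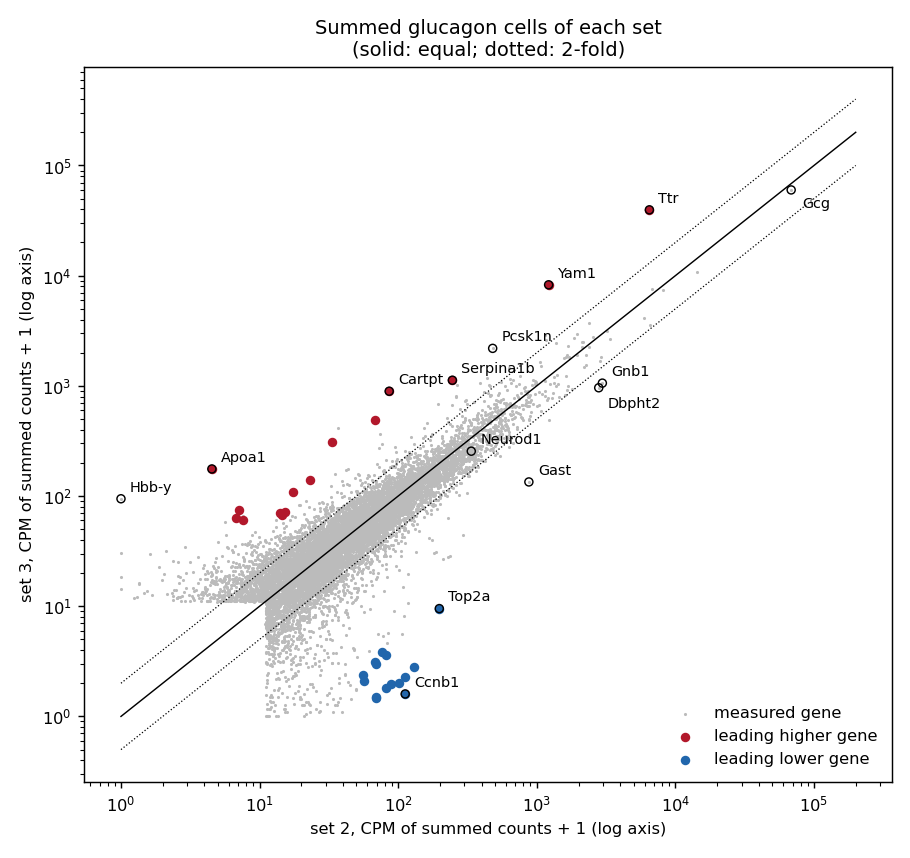
Each point is 1 of the 10391 measured genes, with its CPM in the summed set 2 cells (n = 47 and 66) on the x axis and in the summed set 3 cells (n = 32) on the y axis, both plus 1 and on log axes. Ttr, Yam1 and Cartpt lie far above the dotted 2-fold line, mitosis genes such as Ccnb1 lie far below it, and Gcg and Neurod1 lie between the lines.

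No regulator on the alpha list passed 2-fold between the summed sets. Of the 20 measured genes of the alpha list, 1 was higher in set 3 (Ttr) and 0 were lower, beside 7.01% and 8.28% of all genes. Their median log2 ratio was -0.20. The list includes Gcg, which chose the cells, and as a group it is no result. Neurod1, the overexpressed bHLH activator (chromosome 2, 79452521 to 79456751, mm10), ran from 14.7 to 772 CPM with a median of 213 in set 3 and from 16.7 to 1779 with a median of 292 in set 2. The ranges overlapped almost whole, and the log2 ratio of the sums was -0.40. A count per gene symbol does not separate a transgene from the native gene. Neurog3 was near the floor, at 5.48 CPM in set 3 and 3.91 CPM in set 2, and did not pass the filter for measured genes.

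The Iroquois factor Irx2 had a log2 ratio of 0.43 and its relative Irx1 of -0.53. The POU factor Pou3f4 had a log2 ratio of -0.30. The broader islet factors Isl1, Pax6, Insm1 and Rfx6 had log2 ratios of -0.38, -0.40, -0.04 and 0.48. None of these factors reached 2-fold in either direction. Of the 24 measured islet transcription factors, 2 were higher and 1 was lower, near the 7.01% and 8.28% of all genes, with a median of -0.26. Against both stretches of set 2, 2 were higher and 0 lower, beside 4.04% and 4.97% of all genes. The lower one was Meis2, a TALE homeodomain factor also on the list of markers of pancreatic polypeptide (PP) cells, at 357 CPM against 880 CPM. Its log2 ratio was -1.30 against all set 2 cells, -1.85 against set 2 numbers 1 to 51 and -0.44 against numbers from 52 upward. The imprinted retrotransposon-derived gene Peg10 and the ETS factor Etv1, both of the alpha list, had log2 ratios of -0.55 and -0.81.

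Transthyretin (Ttr), a carrier of thyroid hormone and retinol-binding protein made by liver and by alpha cells, was the most abundant gene that differed. It ran from 1759 to 121154 CPM in set 3, with a median of 19994, and from 386 to 29019 in set 2, with a median of 5609. The ranges overlapped, but 15 of 32 set 3 cells lay above every set 2 cell, and 16 of 32 reached 20000 CPM. The set 3 cell was the higher in 83.3% of the pairs that join a set 3 cell with a set 2 cell. The sums gave 39583 CPM against 6491 CPM, a log2 ratio of 2.61. Set 2 was itself split at this gene: its log2 ratio was 3.92 against numbers 1 to 51, where 0 of 47 cells reached 20000 CPM, and 1.95 against numbers from 52 upward, where 9 of 66 did. In set 3 the 5 cells of numbers 1 to 29 had a median of 13896 CPM and the 27 others one of 20429.

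Genes of secreted liver proteins stood higher alongside Ttr. Of the 10 measured genes of the hepatic list, which includes Ttr, 7 were higher against both stretches of set 2 and 0 were lower, beside 4.04% and 4.97% of all genes, with a median log2 ratio of 1.96. Its summed level had a median of 20615 CPM (2439 to 121709) in set 3 and 6094 CPM (460 to 29377) in set 2. Serpina1b, a serine protease inhibitor of the alpha-1-antitrypsin family, ran from 0 to 3104 CPM with a median of 1104 in set 3 and from 0 to 1997 with a median of 164.4 in set 2. The set 3 cell was the higher in 81.5% of pairs, and the log2 ratio of the sums was 2.19. Its paralogue Serpina1a, whose reads can be hard to assign between near-identical copies, had a log2 ratio of 1.90. Medians of Serpina1b were close in both stretches of set 3, at 1107 CPM in numbers 1 to 29 and 1101 in numbers 30 to 95.

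Apoa1, the main protein of high-density lipoprotein (chromosome 9, 46228580 to 46230466, mm10), had the largest log2 ratio of the leading genes, 5.28, at 175.1 CPM against 3.52 CPM. It was a gene of some cells: 14 of 32 set 3 cells reached 10 CPM, with a maximum of 867, against 1 of 47 and 11 of 66 set 2 cells, with a maximum of 63.4. The fetal plasma protein Afp had 70.6 CPM against 14.3, a log2 ratio of 2.23, and fibrinogen chain Fgb 169.7 against 40.8, a log2 ratio of 2.03. Beyond the list, the lipocalin apolipoprotein Apom had 108.5 CPM against 16.6, a log2 ratio of 2.64, and the plasma carboxypeptidase Cpb2 139.4 against 22.1, a log2 ratio of 2.60. Apom did not hold in both stretches of set 3, with 7.5 CPM in the 5 cells of numbers 1 to 29 and 121.5 in the 27 others. In those 5 cells Afp and Fgb also fell short of 2-fold against set 2 numbers from 52 upward, with log2 ratios of 0.27 and 0.0046. Set against the Ngn3KO glucagon cells of set 2, which are of the other genotype, all set 3 cells gave Afp a log2 ratio of -0.20. Albumin did not pass the filter for measured genes.

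Among the leading higher genes were Cartpt, Gal and Cck, which encode peptide precursors and were high in a subset of set 3 cells. Cartpt, the precursor of the CART peptides of brain and islets, ran from 0 to 23035 CPM with a median of 67.6 in set 3 and from 0 to 4107 with a median of 4.92 in set 2. It reached 1000 CPM in 7 of 32 set 3 cells (21.9%, exact 95% interval 9.28 to 39.97%) and in 0 of 47 and 1 of 66 set 2 cells (0.885% of both, 0.0224 to 4.83%). The sums gave 893 against 85.1 CPM, a log2 ratio of 3.38. Gal, which encodes galanin, a peptide that inhibits insulin release, ran from 0 to 4649 CPM with a median of 120.5 in set 3 and from 0 to 1218 with a median of 20.1 in set 2, a log2 ratio of 2.86 for the sums. Cck, the gene of cholecystokinin, a gut hormone that drives pancreatic enzyme secretion, had 307 against 32.5 CPM, a log2 ratio of 3.20, with a set 3 median of only 11.04 CPM and single cells up to 6253. The gut and stomach list, which holds Cck, had 3 of 6 measured genes higher (Cck, Sct and Tff3) and 1 lower (Gast), beside 7.01% and 8.28% of all genes, with a median log2 ratio of 0.87. Such intervals cover counting error only.

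Cartpt, Gal and Cck followed the stretch of title numbers in set 3. Gal was at 32.3 CPM in the 5 cells of numbers 1 to 29 and at 547 in the 27 of numbers 30 to 95. Cartpt was at 54.8 and 1001 CPM, and Cck at 7.5 and 345. The levels in the 5 cells were below those of set 2 numbers from 52 upward. The log2 ratios were -1.03 for Gal, -1.43 for Cartpt and -2.71 for Cck. Against the other stretch of set 2 they were -1.02 for Gal and -0.32 for Cck, but 1.54 for Cartpt. The Cartpt ratios rest on few cells. A single cell of set 2 numbers from 52 upward held 46.6% of the set 2 reads of Cartpt. In the 5 cells Cartpt had a median of 4.42 CPM and a maximum of 425. Of the 15 leading higher genes, 15 stayed 2-fold or more above set 2 in numbers 30 to 95. In numbers 1 to 29, 9 did and 4 (Chad, Cck, Gal and Apom) were 2-fold or more lower. With 5 cells the latter count rests on few reads, and the 2 stretches of set 3 differed 2-fold at many genes: 1544 (14.9%) higher and 2055 (19.8%) lower in numbers 1 to 29 of 10378 measured. Against all set 2 cells, the higher levels of these peptides were thus seen in the 27 cells of numbers 30 to 95.

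The upstream sequence of Cartpt is shown because it carries a palindromic cyclic AMP response element, TGACGTCA, the recognition sequence of CREB-family factors. It is the 150 bases before the RefSeq transcript start in build GRCm38.p6, chr13:99900684-99900833, minus strand, written 5′ to 3′ with the element in capitals.
Cartpt: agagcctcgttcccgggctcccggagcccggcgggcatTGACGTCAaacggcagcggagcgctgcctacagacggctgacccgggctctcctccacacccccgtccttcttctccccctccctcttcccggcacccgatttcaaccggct
In windows of 250 bases before to 50 after the start, TGACGTCA stood in 549 of 27025 genes (2.03%) and in 2 of the 12 leading higher genes that matched the table, Cartpt and Cpb2. The E-box CAGATG, searched on both strands (CATCTG), stood in 2 of these 12 (16.7%), beside 19.2% of all genes. A match describes letters only.

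Pcsk1n was higher more evenly across cells, while most genes of the secretory granule list did not pass 2-fold. Pcsk1n, the gene of proSAAS, an inhibitor of prohormone convertase 1 (chromosome X, 7919822 to 7924410, mm10), ran from 459 to 6217 CPM with a median of 1839 in set 3 and from 21.2 to 1950 with a median of 455 in set 2. The set 3 cell was the higher in 92.04% of pairs. It reached 1000 CPM in 25 of 32 set 3 cells, in 0 of 47 set 2 cells of numbers 1 to 51 and in 21 of 66 of numbers from 52 upward. The log2 ratio of the sums was 2.19, with 3.03 and 1.67 against the 2 stretches of set 2. Chromogranin A (Chga), an acidic granule protein, had 2879 against 1144 CPM, a log2 ratio of 1.33.

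Aplp1, a relative of the amyloid precursor protein, had a log2 ratio of 1.17 and Baiap3, a granule-recycling protein of neuroendocrine cells, of 1.502; both were chosen after their values were seen. Set 3 cells were the higher in 85.3% of pairs for Aplp1 and 87.97% for Baiap3. Of the 26 measured genes of the granule list, 2 were higher (Pcsk1n and Chga) and 0 were lower, beside 7.01% and 8.28% of all genes, with a median log2 ratio of 0.21. The share higher was near that of all genes, so the list as a group is no result. The carboxypeptidase Cpe had a log2 ratio of 0.64, the convertase chaperone Scg5 of 0.84 and the granule membrane protein Ptprn of 0.93. The gene of the gut hormone secretin, Sct, had a log2 ratio of 1.22, with 515 CPM in set 3 numbers 1 to 29 and 1588 in numbers 30 to 95.

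**Figure D2:**
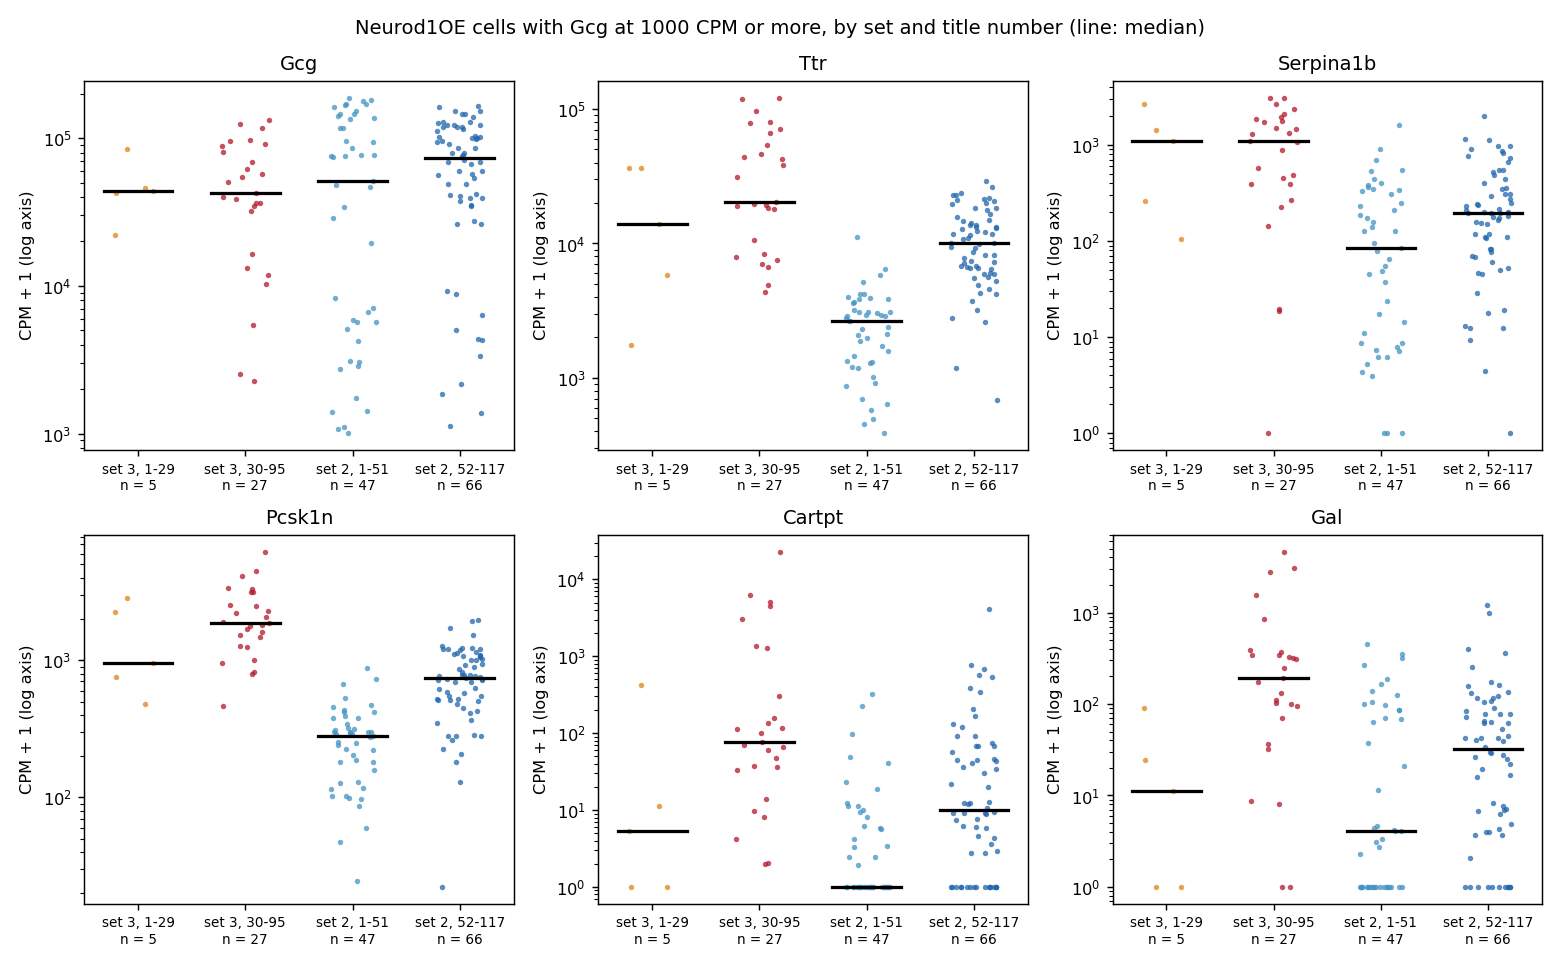
Each point is a glucagon cell of set 3 (numbers 1 to 29, n = 5; 30 to 95, n = 27) or set 2 (1 to 51, n = 47; from 52 upward, n = 66), with CPM plus 1 on a log axis and a line at the median. Ttr, Serpina1b and Pcsk1n had higher medians in both stretches of set 3 than in either of set 2, with single low cells, while Cartpt and Gal were high mainly in numbers 30 to 95 and Gcg overlapped in all groups.

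The same cells tended to carry several of these genes. Over the 32 set 3 cells the rank correlation of Ttr was 0.80 with Cartpt, 0.65 with Apoa1 and 0.64 with Pcsk1n. In the 47 cells of set 2 numbers 1 to 51 the values were -0.09, 0.24 and 0.20, and in the 66 of numbers from 52 upward they were 0.12, 0.35 and 0.21. With Serpina1b the rank correlation of Ttr was 0.57 in set 3. It was close to that in set 2 numbers 1 to 51, at 0.47, and -0.02 in numbers from 52 upward. Ttr and Gcg had a rank correlation of 0.13 in set 3 and of 0.60 and 0.48 in the stretches of set 2. These are descriptions over cells that share library depth and a common total, and the set 3 values pool 2 stretches of title numbers. Other leading genes were Plac8 (62.1 against 5.73 CPM), Ly6h, a GPI-anchored neural protein (59.1 against 6.61 CPM), and Chad, the matrix protein chondroadherin (73.9 against 6.07 CPM, with 0 reads in the 5 cells of set 3 numbers 1 to 29).

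The other islet hormones overlapped widely between the sets. The appetite-regulating peptide YY (Pyy) reached 1000 CPM in 31 of 32 set 3 cells and 46 of 47 and 64 of 66 set 2 cells. Pancreatic polypeptide (Ppy) did so in 5 of 32 (15.6%, 5.28 to 32.8%) and in 11 of 47 and 15 of 66 (23.01%, 15.6 to 31.9%), and ghrelin (Ghrl) in 7 of 32 (21.9%, 9.28 to 39.97%) and in 3 of 47 and 6 of 66 (7.96%, 3.71 to 14.6%). The insulin genes together did so in 1 and 5 cells, and amylin (Iapp) in 14 and 66. Somatostatin did so in 0 of 32 cells, which allows up to 9.38%, and in no set 2 cell, which allows up to 2.65%. Ins2 was a single-cell case: its sums gave a log2 ratio of 1.43, but 1 cell held 91.01% of the set 3 reads, the median was 4.07 CPM in set 3 against 42.2 in set 2, and without the top cell of each set the ratio was -1.84.

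Genes of cell division were the lowest in set 3. The 15 leading lower genes all act in DNA replication or mitosis, and 12 of 12 genes of the cycling list were lower, beside 8.28% of all genes, with a median log2 ratio of -4.65. Ccnb1, the cyclin that drives entry into mitosis, had 0.599 CPM against 111.3, a log2 ratio of -6.13. Its median cell was at 0 in both sets, with a maximum of 73.7 CPM in set 3 and 1779 in set 2. Cdk1, the kinase that Ccnb1 activates, had 1.28 against 111.2 CPM, a log2 ratio of -5.62. Top2a, the topoisomerase that untangles replicated DNA, had 8.52 against 196.95 CPM. The proliferation marker Mki67 had 4.62 against 106.2 CPM.

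The reads came from few cells. A cell was called cycling when the mean of the 12 list genes reached 50 CPM, which 1 of 32 set 3 cells (3.13%, exact 95% interval 0.0791 to 16.2%) and 13 set 2 cells (11.5%, 6.27 to 18.9%) did. These intervals cover counting error over cells and do not compare the sets. Those 13 cells held 98.1% of the set 2 reads of Ccnb1 and 97.2% of those of Cdk1. Both genes are on the list that called the cells, so high shares follow in part from the rule. Cycling cells were 4 of 47 in set 2 numbers 1 to 51 and 9 of 66 in numbers from 52 upward. Among the 63 set 3 cells below the glucagon limit, 14 were cycling. Set 3 as a whole thus held dividing cells, but 1 of its 15 carried glucagon at the limit.

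Leaving out the cycling cells moved the list's median log2 ratio from -4.65 to -0.72, and Mki67 alone from -4.25 to 0.40. The same list defines these cells, so a move toward 0 was built into the rule and is no separate result. Without cycling cells 732 of 10195 genes (7.18%) were higher and 598 (5.87%) lower in set 3, and 593 of the 860 lower genes were still lower. Of 15 measured DNA replication genes, 13 were lower, beside 8.28% of all genes, with a median of -1.94 and of -1.005 without cycling cells. Mcm5, a subunit of the replicative helicase, had a log2 ratio of -2.80, and Rrm2, the small subunit of ribonucleotide reductase, of -4.51.

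Upstream sequences of 3 leading mitosis genes are shown because such promoters are known for the CCAAT box bound by NF-Y and for the cell cycle homology region (CHR) TTTGAA bound by repressor complexes in resting cells. Each is the 150 bases before the RefSeq transcript start in build GRCm38.p6 on the minus strand: Cdk1 chr10:69352913-69353062, Ccnb1 chr13:100786487-100786636 and Cdca8, which encodes the chromosomal passenger protein borealin, chr4:124936918-124937067. Capitals mark CCAAT or its reverse ATTGG, and TTTGAA or its reverse TTCAAA.
Cdk1: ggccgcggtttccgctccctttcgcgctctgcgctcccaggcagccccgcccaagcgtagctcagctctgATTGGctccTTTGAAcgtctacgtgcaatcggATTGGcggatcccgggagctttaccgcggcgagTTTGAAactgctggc
Ccnb1: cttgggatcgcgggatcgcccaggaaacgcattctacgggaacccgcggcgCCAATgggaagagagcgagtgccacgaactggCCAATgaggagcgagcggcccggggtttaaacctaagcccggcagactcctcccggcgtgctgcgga
Cdca8: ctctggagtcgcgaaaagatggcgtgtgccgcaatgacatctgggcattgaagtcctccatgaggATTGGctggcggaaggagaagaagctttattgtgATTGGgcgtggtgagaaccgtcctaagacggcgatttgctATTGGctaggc
Cdk1 shows 2 CCAAT boxes and 2 TTTGAA elements in this stretch, Ccnb1 shows 2 CCAAT boxes and Cdca8 shows 3. In the 300-base windows a CCAAT box on either strand stood in 11 of the 13 leading lower genes that matched the table (84.6%) and in 41.1% of all 27025 genes. TTTGAA stood in 9 of the 13 (69.2%) and in 20.2% of all genes. Of the 12 leading higher genes that matched, 4 (33.3%) held a CCAAT box and 1 (8.33%) held TTTGAA. A match is a description of the letters and not evidence of binding.

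Lower genes beyond the cell cycle included the stomach hormone gastrin (Gast), which fetal islets also express. It ran from 0 to 2080 CPM with a median of 70.8 in set 3 and from 8.46 to 11308 with a median of 166.9 in set 2. It reached 1000 CPM in 1 of 32 set 3 cells (3.13%, 0.0791 to 16.2%) and in 10 of 47 and 15 of 66 set 2 cells (22.1%, 14.9 to 30.9%). The sums gave 133.3 against 876 CPM, a log2 ratio of -2.71, and it was low in both stretches of set 3, at 110.6 and 136.2 CPM. The ranges overlapped, and the gastrin-rich cells were nearly all in set 2.

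A few genes, chosen after their values were seen, were lower over most cells. The noncoding RNA gene Dbpht2 ran from 68.8 to 4375 CPM with a median of 588 in set 3 and from 67.1 to 9430 with a median of 2594 in set 2, a log2 ratio of -1.54 for the sums. The aldo-keto reductase Akr1c13 had medians of 35.7 and 181.4 CPM, a log2 ratio of -1.85, and set 3 cells were the higher in 16.4% of pairs. The RNA helicase Ddx1 had a log2 ratio of -1.42 and the vesicle SNARE Vamp8 of -1.28. Gnb1, a G protein beta subunit, had a log2 ratio of -1.49 against all set 2 cells but of -0.43 against set 2 numbers 1 to 51 and -2.07 against numbers from 52 upward. It marks a split within set 2 more than one between the sets.

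**Figure D3:**
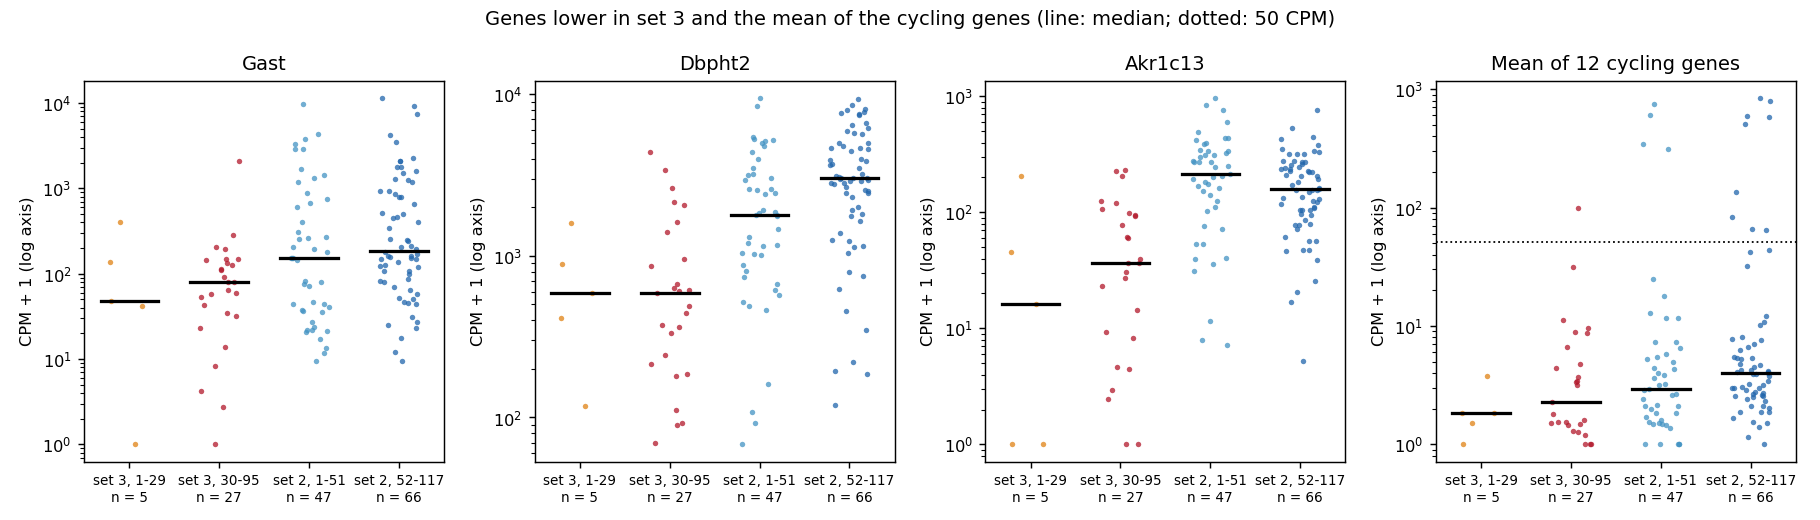
Each point is a glucagon cell, by set and stretch of title numbers as labelled, with CPM plus 1 on a log axis and a line at the median; the last panel shows the mean of the 12 cycling genes with a dotted line at 50 CPM. Gast and Akr1c13 were lower in both stretches of set 3, and 1 set 3 cell against 13 set 2 cells lay above the dotted line.

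Duct genes were lower in the sums and carried by few cells. Of 12 measured genes of the duct and trunk list, 8 were lower, beside 8.28% of all genes, with a median log2 ratio of -1.32, while the median share of pairs in which the set 3 cell was higher was 51.4%. Spp1, the secreted phosphoprotein osteopontin, had 27.1 against 229 CPM, a log2 ratio of -3.03, but its median cell was higher in set 3, at 18.9 against 6.31 CPM, and the set 2 cell with 14958 detected genes held 58.4% of the set 2 reads. The duct regulator Sox9 had a log2 ratio of -1.77 and the keratin Krt18 of -1.09. The summed level of the list had medians of 1547 CPM (476 to 3346) in set 3 and 1612 CPM (509 to 9145) in set 2.

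Digestive enzyme genes gave an opposite sign in the 2 stretches of set 2. Of 8 measured genes of the acinar list, 5 were lower and 1 was higher, beside 8.28% and 7.01% of all genes, with a median of -1.71, of 0.41 against numbers 1 to 51 and of -2.14 against numbers from 52 upward. The set 2 cell with 14958 detected genes held 92.2% of the set 2 reads of Ctrb1, a chymotrypsinogen. The summed list had medians of 350 CPM (16.1 to 11866) in set 3 and 143.7 CPM (0 to 15875) in set 2, and Prss1 was at 0 in both. Acinar genes were abundant in some other sorted cells, with a summed level of up to 232400 CPM in Neurod1OE set 3 cells below the glucagon limit. The part of free RNA in the values of glucagon cells was not tested.

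Immediate early genes, which respond within minutes to stimuli such as dissociation, were lower as a list mainly against 1 stretch of set 2. Against both stretches, 2 of the 12 measured genes were lower, beside 4.97% of all genes. Of 12 measured, 7 were lower and 0 higher, beside 8.28% and 7.01% of all genes, with a median of -1.05, of -1.37 against numbers 1 to 51 and of -0.10 against numbers from 52 upward. Jun had a log2 ratio of -2.58, Junb of -1.33 and Fos of -1.08, and Junb was 0.12 against numbers from 52 upward. None was called in 3 other lists: 0 of 19 unfolded protein response genes, 0 of 29 nuclear respiratory chain genes and 0 of 11 heat shock genes passed 2-fold in either direction, with medians of -0.06, -0.07 and -0.40, beside 7.01% higher and 8.28% lower of all genes.

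**Figure D4:**
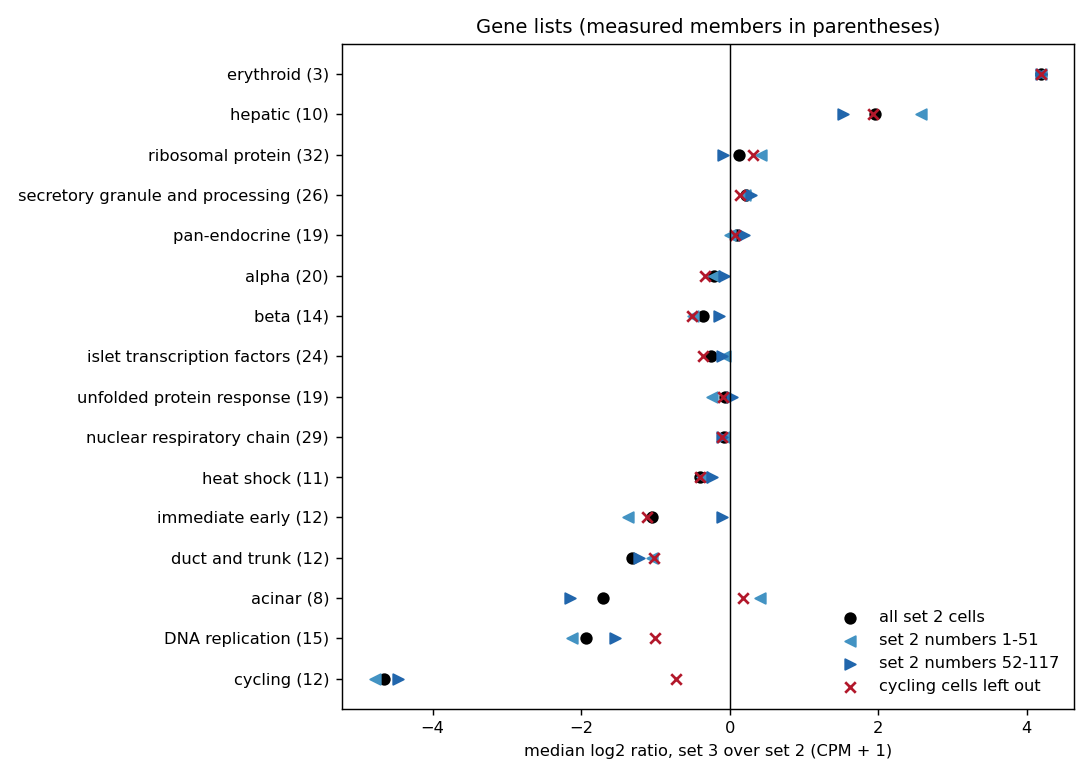
The x axis is the median log2 ratio (set 3 over set 2) of the measured members of each list, with their number in parentheses, against all set 2 cells, against each stretch of its title numbers, and with cycling cells left out. The hepatic list lay above 0 against each, and the acinar list changed sign between the stretches. The cycling list moved from -4.65 to -0.72 when cycling cells, which that same list defines, were left out.

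Some genes differed between the sets in glucagon cells, and for Hbb-y, Yam1 and Rps29 the medians of the reference cells lay on the side of their set. The references were cells below the glucagon limit in set 3 and Ngn3KO glucagon cells in set 2. The set 3 references differ from glucagon cells in kind, so set and kind of cell cannot be told apart in them. Set 2 held only 4 Neurod1OE cells below the limit, so the sets were not compared in such cells. The embryonic haemoglobin gene Hbb-y had reads in set 3 only, at 93.4 CPM against 0 of 72925712 reads, at least 2272-fold higher against a floor of 3 reads over the set 2 sum. It ran from 0 to 572 CPM with a median of 39.96 in set 3 and was 0 in every set 2 glucagon cell. Hba-x, an embryonic alpha-type globin gene, and Hba-a1, an adult alpha-globin gene, had 17.3 and 13.4 CPM against 0. Haemoglobin reads occurred in 93 of 95 Neurod1OE and 30 of 30 Ngn3KO cells of set 3, and in 2 (1.71%) and 3 cells (1.46%) of set 2. The erythroid list had 3 measured genes, all globins. Ttr and Hbb-y had a rank correlation of -0.35 over the 32 set 3 cells, which pool both stretches of title numbers. The source of the haemoglobin reads, and any part of it in other genes, was not tested.

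Noncoding and ribosomal protein genes were among those that differed. Yam1, a noncoding RNA gene by its annotation, ran from 3518 to 25381 CPM with a median of 8510 in set 3 and from 225 to 3892 with a median of 1074 in set 2, and the set 3 cell was the higher in 99.9% of pairs. The ranges touched at a few cells. Yam1 was at 5944 CPM in set 3 cells below the glucagon limit and at 1424 in Ngn3KO glucagon cells of set 2. The RNA polymerase III transcripts Rn7sk (27.4 against 4.35 CPM) and Rpph1 (33.1 against 1.91 CPM), both chosen after their values were seen, had log2 ratios of 2.41 and 3.55. The ribosomal protein genes Rps29 and Rps27 had log2 ratios of 1.59 and 1.42, with the set 3 cell higher in 99.2% and 99.6% of pairs, and Rplp1 had one of 1.28.

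All Rpl and Rps genes together had a median of 61832 CPM (37332 to 84694) in set 3 and 41641 CPM (23578 to 166013) in set 2. Below the glucagon limit in set 3 the median was 90004 CPM in Neurod1OE cells and 204665 in Ngn3KO cells. The level of this family thus also differed among cells of the same set. Of 82 measured, 12 were higher and 0 lower, beside 7.01% and 8.28% of all genes. The glycolytic enzyme Gapdh had a log2 ratio of 1.03 against all set 2 cells, but did not pass 2-fold against both stretches. The glycolysis list, which holds Gapdh, had 1 of 11 measured genes higher and 1 lower, with a median log2 ratio of -0.36. Of the genes higher by 2-fold and in 80% or more of cell pairs, 66 in all (0.635%), 52 were higher against both stretches, and 38 of those 52 were ribosomal, haemoglobin, predicted or clone-named genes. Only 10 genes (0.0962%) were as evenly lower. Whether all 52 also separate the other cells of the sets was not measured, and the part of preparation or sequencing in these differences was not tested.

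**Figure D5:**
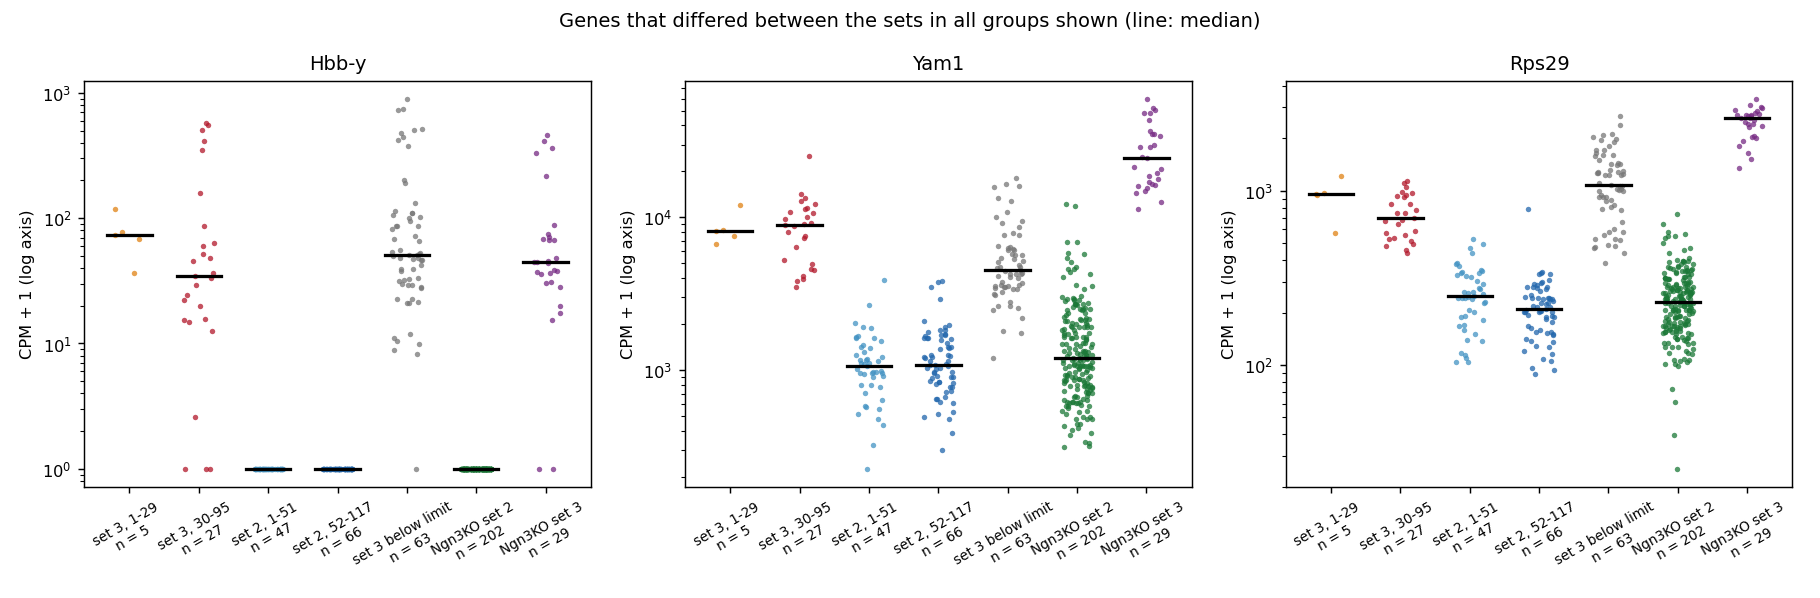
Each point is a cell, by set, genotype and title number as labelled, with CPM plus 1 on a log axis and a line at the median. Hbb-y, Yam1 and Rps29 were high in all groups of set 3, below the glucagon limit and in Ngn3KO cells included, and low or at 0 in all groups of set 2.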

How the data were processed

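Single GFP-positive cells of fetal mouse pancreas were read by Smart-seq3. The deposited matrices hold raw read counts per gene and cell as whole numbers, with cell and gene names (other text) in separate deposited lists. The submitters' processing notes name Trimmomatic 0.39, HISAT2 2.1.0, featureCounts 2.0.0 and the build mm10. The annotation, strand setting, use of molecule barcodes and cell filters are not given in the sources used here. Overlapping genes, antisense genes and near-identical copies are therefore uncertain. No cell was filtered and no doublet caller was run, since the method sorts 1 cell per well. Whether a well held more than 1 cell was not tested, also for the set 2 cell with 14958 detected genes.

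Reads of all cells in a set were added up per gene and scaled to CPM by the plain total without spike-in rows, so deep cells weigh more. Total counts summed to 23360706 reads in set 3 and 72925712 in set 2. This depth gives Apoa1 in set 3 a 95% interval of 170 to 181 CPM. Intervals (exact Poisson or Clopper-Pearson) cover counting error only. No test was made between the sets, because the labels name no animal. The script that computes ratios was tested on simulated data.

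Named genes were fixed regulators and hormones, the 15 largest and 15 smallest ratios at 50 CPM or more that were 2-fold the same way against both stretches of set 2 and without the top cell, and up to 4 members of each of 44 lists, leaving out predicted, ribosomal, haemoglobin and sex genes. The cells, lists and rules were chosen with earlier results of these data known. Alternatives were the scaling (edgeR 4.0.16 TMM, DESeq2 1.42.0), filter, pseudocount, Gcg limit, depth and choice of cells. Python 3.11.15, numpy 2.4.6, pandas 2.3.3, scipy 1.17.1, matplotlib 3.10.9 and R 4.3.3 were used. Coordinates are from GENCODE for mm10, and promoter sequences from RefSeq, GRCm38.p6. Values of some list members are not reported here.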

Additional observations from a re-analysis of the deposited data

How the results depend on the processing

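Scaling by TMM, by DESeq2 size factors or without hormone genes left both counts within 1.5 times (719 to 827 higher, 856 to 873 lower), and all 55 genes printed here that passed 2-fold still did. Fewer did with female cells only (39), for median cells (40), against Ngn3KO set 2 cells (49) and against set 2 numbers from 52 upward (49), and 51 to 55 did under each other setting. The leading genes among the 55 were chosen as 2-fold against both stretches of set 2 and without the top cell. Those settings therefore could not drop them and are no check on them. The counts moved to 1667 higher and 1935 lower without a filter on low values, about 2.0e+02 (4.11% of 4741) and 232 at 50 CPM, 267 and 399 with a pseudocount of 10 CPM, 1794 and 1977 at 1.5-fold, and 224 and 368 at 3-fold, settings that by their construction test other genes or other limits. They were 1234 and 1377 with male cells only, 1713 and 2219 with female cells only (5 set 3 cells), and 1331 and 428 for median cells, an alternative chosen after seeing the data; against set 2 title numbers 1 to 51 the higher count was 1207. The cause was not tested.

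Reversed with female cells only were Apom (-1.34), Cartpt (-1.41), Cck (-2.70), Gal (-1.002), Sct (-0.71), Chad (-2.96), Meis2 (0.58) and Ins2 (-5.88). Ins2 also reversed without the top cells (-1.84), without cells of other hormones (-0.72), against Ngn3KO set 2 cells (-3.01) and for median cells (-3.09). Afp reversed against Ngn3KO set 2 cells (-0.20), Mki67 without cycling cells (0.40), Junb against set 2 numbers from 52 upward (0.12), and Spp1 (1.45) and the duct list (0.021) for median cells. The acinar list reversed at Gcg limits of 3000, 10000 and 30000 CPM (0.12, 0.87 and 0.87), without cycling cells (0.18), without the 2% highest totals (0.19), against set 2 numbers 1 to 51 (0.41), with male cells only (0.43), against Ngn3KO set 2 cells (0.66) and for median cells (2.102).

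No paired analysis was possible because each set is 1 sample and cells carry no pairing across sets. Depth limits genes near 10 CPM and the cells of set 3 numbers 1 to 29.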
